A study of Mus musculus with 23 samples.

Results

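Fast-twitch contractile genes were followed in mouse gastrocnemius, a mostly fast calf muscle, with 1-colour Agilent arrays. The 10 genes were taken by name from a list set for fast fibres, through the RefSeq accession of each probe. The list was set with earlier results of these data known. They are the fast myosin heavy chains Myh1, Myh2 and Myh4, the fast regulatory light chain Mylpf, the fast troponins Tnni2, Tnnt3 and Tnnc2, the calcium pump Atp2a1, the Z-disc protein Actn3 and the calcium buffer Pvalb. They made up 10 of the 27302 features tested, of which 15518 carried a gene symbol, and each of the 10 was well above background on all 23 arrays.

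All mice were male C57BL/6J animals without a genetic change, housed singly, and groups differed in age and in training. Adult mice began at 5 months and are labelled 6 months, and old mice began at 24 months and are labelled 25 months. Training on a treadmill was daily for 4 weeks. In high-intensity intermittent training (HIIT) a mouse ran 3 bouts, each lasting 2 min at a belt speed of 27 m/min, separated by slow bouts of 1 min at a speed of 5 m/min. In moderate-intensity continuous training (MICT) it ran without a break for 45 min at a speed of 13 m/min. Sedentary controls met a treadmill that was switched off. The mice rested for 12 h before tissue collection, and each array received label from 200 ng of total RNA. Adult control, adult HIIT, old control, old HIIT and old MICT had 4 arrays each, and adult MICT had 3, with replicate 2 not analysed here. Adult control and adult HIIT shared slide 1, adult MICT and old control shared slide 2, and old HIIT and old MICT shared slide 3. HIIT against control in adults and HIIT against MICT in old mice therefore lay within a slide, and the other comparisons lay across slides. A list of 14 muscle genes is called here the sarcomere genes of all fibres. It includes Acta1, Ttn and Des, but also Cav3 and Dmd, which are not sarcomere genes. All 14 were above background on every array, which matches the labelled tissue.

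Skeletal muscle fibres are slow or fast according to the myosin heavy chain they carry. Myh7 marks slow fibres, Myh2 the fast 2A fibres, Myh1 the 2X fibres and Myh4 the fastest, glycolytic 2B fibres. In fast fibres, Atp2a1 (SERCA1) returns calcium to the sarcoplasmic reticulum and parvalbumin binds it in the cytosol, so that relaxation is quick. Troponin C (Tnnc2) senses calcium on the thin filament, troponin I (Tnni2) inhibits and troponin T (Tnnt3) anchors the complex to tropomyosin. Endurance training is known to move fibres from the 2B towards the 2A end, and ageing muscle is known for loss of fast fibres. RNA came from whole muscle, so fewer cells of a type and less RNA per cell cannot be told apart.

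The fast myosins lie side by side on chromosome 11, in the order Myh3, Myh2, Myh1, Myh4, Myh8 and Myh13. RefSeq promoter windows (GRCm38.p6) were matched for 7 of the 10 genes, as 8 promoters, and Tnni2, Tnnt3 and Actn3 had none. The 250 bases upstream of the start site are printed for the 3 fast myosin heavy chains, because these neighbouring genes carry the difference between fast fibre types. Capitals mark E-boxes (CANNTG, both strands), the MEF2 motif and CArG box (both strands) and TATAAA (sense strand only), and the windows, all on the plus strand, are chr11:67170777-67171026 for Myh2, chr11:67199852-67200101 for Myh1 and chr11:67237562-67237811 for Myh4.
Myh2: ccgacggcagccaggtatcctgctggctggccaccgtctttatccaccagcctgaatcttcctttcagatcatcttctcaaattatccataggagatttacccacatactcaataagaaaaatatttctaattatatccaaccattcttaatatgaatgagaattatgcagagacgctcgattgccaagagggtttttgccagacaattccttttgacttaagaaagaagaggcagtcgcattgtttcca
Myh1: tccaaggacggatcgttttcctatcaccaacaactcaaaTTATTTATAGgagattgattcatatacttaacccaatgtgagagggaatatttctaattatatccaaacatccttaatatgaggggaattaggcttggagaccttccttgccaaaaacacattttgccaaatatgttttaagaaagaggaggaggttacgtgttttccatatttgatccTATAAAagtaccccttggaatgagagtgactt
Myh4: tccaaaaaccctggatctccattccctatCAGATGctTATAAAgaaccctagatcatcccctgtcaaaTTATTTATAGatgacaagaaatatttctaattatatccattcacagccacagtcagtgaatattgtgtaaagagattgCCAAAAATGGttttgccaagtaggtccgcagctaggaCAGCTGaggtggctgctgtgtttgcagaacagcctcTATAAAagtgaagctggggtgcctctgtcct

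The Myh4 window held 2 E-boxes, at positions -221 and -67 from the start site, a MEF2 motif at -182, a CArG box at -104 and TATAAA at -213 and -31. In Myh1 the same MEF2 letters stood at -211 and TATAAA at -32, with no E-box and no CArG box. The Myh2 window held none of these letters. Across 32851 promoter windows of that length, 66.2% held an E-box, 2.92% the MEF2 motif, 1.47% the CArG box and 7.59% the letters TATAAA. The core letters of NFAT sites, GGAAA on both strands, were in 55.6% of windows, and they occurred at -6 in Myh2, at -234 and -48 in Myh1 and nowhere in the Myh4 window. TCAGGTT (both strands), the MEF3 motif, occurred in 3.49% of all windows and in none of the 8. The longest run of letters common to the 3 myosin windows was 20 bases long.
Shared run: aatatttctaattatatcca
It lay at -130 to -111 in Myh2, at -165 to -146 in Myh1 and at -163 to -144 in Myh4, and no other window of the 32851, on either strand, held it.

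Levels are given as scaled log2 intensity, the log2 of the processed signal minus the 75th percentile of that array's log2 signals, so that 0 stands for that percentile. Values after ± are standard errors (SE) of limma unless called an SD, and a gene was called at a limma adjusted p under 0.05 after Benjamini-Hochberg adjustment over all 27302 features. The brightness of 5 of these genes limits what scaled values can show. The brightest spot of an array stood between 18.89 and 19.11 on the log2 scale before scaling, while the 75th percentile ran from 7.76 to 9.08. Before scaling, Tnnc2 ran from 18.38 to 18.78 over the 23 arrays, Tnnt3 from 18.13 to 18.64, Pvalb from 18.38 to 18.87, Tnni2 from 18.14 to 18.86 and Myh4 from 17.98 to 18.39. These 5 genes lay within 0.97 of the array's brightest spot on every array. No spot was marked as saturated.

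Scaled values of the 5 brightest genes followed the array's 75th percentile downwards, with Pearson r of -0.96 for Tnnc2, -0.95 for Tnnt3, -0.95 for Myh4, -0.94 for Pvalb and -0.88 for Tnni2 over 23 arrays. The subtracted percentile is itself part of each scaled value, so these correlations describe the scale. The other 5 genes had more room below the brightest spot. Mylpf lay 6.02 to 7.42 below it, Atp2a1 2.42 to 4.08, Myh1 1.21 to 3.46, Myh2 0.83 to 3.22 and Actn3 0.86 to 1.94. Their correlation with the percentile was -0.49 for Mylpf, -0.48 for Actn3, -0.37 for Myh1, -0.35 for Atp2a1 and -0.19 for Myh2. The plot of signal against array brightness shows both kinds of gene.

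**Figure D1:**
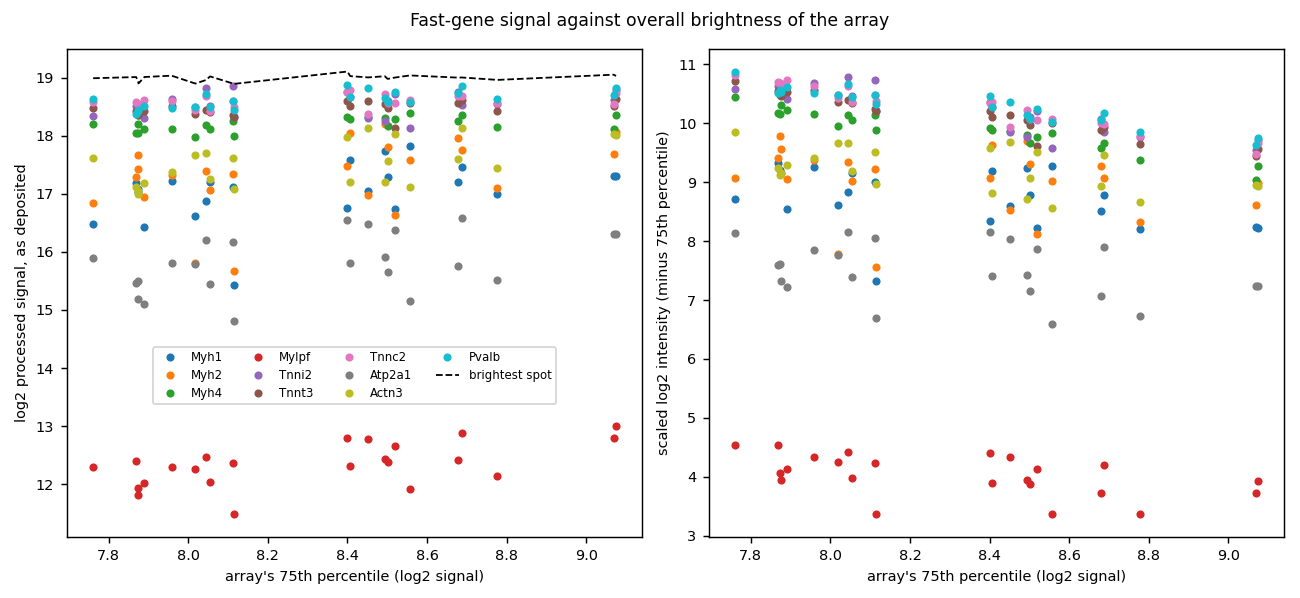
Log2 signal of each fast gene before scaling (left) and after subtraction of the array's 75th percentile (right), against that percentile, with 1 point per array and gene. Before scaling, Tnnc2, Tnnt3, Pvalb, Tnni2 and Myh4 lie just under the brightest spot (dashed line) at every brightness, and after scaling they slope downwards.

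Sedentary old muscle had less Atp2a1 and Mylpf transcript than sedentary adult muscle, while Myh1, Myh4, Tnnt3, Tnnc2 and Pvalb differed by less than their SE. All adult controls lay on slide 1 and all old controls on slide 2, so age and slide cannot be told apart here. The calcium pump fell by 0.96 ± 0.24 log2 units, to a level 1.94-fold lower, and the fast light chain fell by 0.64 ± 0.19, to a level 1.56-fold lower. Of the 10 genes, 2 were called lower and 0 higher. In the same comparison 12.7% of all features were called, 8.49% lower and 4.21% higher. All 10 genes had a negative difference, with a median of -0.30 against -0.16 for all features.

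Atp2a1 stood at 8.15, 7.07, 8.05 and 7.90 in adult controls 1 to 4 and at 6.70, 6.73, 7.32 and 6.60 in old controls 1 to 4. Adult control 2 lay below old control 3, so the groups overlapped by that pair of arrays (limma adjusted p = 0.0192, n = 4 and 4). Mylpf, which encodes the light chain bound to the neck of fast myosin, stood at 4.42, 3.73, 4.24 and 4.20 in adult controls and at 3.36, 3.36, 3.94 and 3.37 in old controls. The same arrays, adult control 2 and old control 3, made the overlap (limma adjusted p = 0.0330). Actn3, the fast-fibre alpha-actinin that cross-links actin at the Z-disc, had the next largest unadjusted evidence, at 9.67, 8.93, 9.51 and 9.46 in adult controls and 8.97, 8.66, 9.16 and 8.57 in old controls. Its difference of -0.55 ± 0.20 did not pass (limma adjusted p = 0.0703). Among old controls, Myh2 split between arrays 1 and 2, at 7.56 and 8.32, and arrays 3 and 4, at 9.56 and 9.02, whereas adult controls ran from 9.07 to 9.35. Its difference was -0.61 ± 0.39 (limma adjusted p = 0.278).

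These 2 calls rested on few arrays. With old control 1, old control 2, adult control 1, adult control 3 or adult control 4 left out, neither gene was called, and with old control 4 left out only Atp2a1 was. Atp2a1 then ranged from -0.84 to -0.92 with limma adjusted p from 0.0547 to 0.0735 in the 5 fits that lost its call. Without old controls 1 and 2 together, Atp2a1 differed by -0.84 ± 0.30 (limma adjusted p = 0.226) and Mylpf by -0.49 ± 0.23 (limma adjusted p = 0.343), and the median of the 10 genes was -0.003. Centring each array on the sarcomere genes of all fibres left Atp2a1 at -0.56 ± 0.19 (limma adjusted p = 0.0775) and Mylpf at -0.24 ± 0.15 (limma adjusted p = 0.305), with 6 of the 10 differences then positive. The deposited value table, before-scaling values and an additive model with slide gave 0 calls among the 10. Of all 27302 features, the deposited value table called 3123 by age and the model with slide called 0. The age term of that model sets old control against adult MICT, with training effects taken from other slides. It is a different contrast, so it cannot check old control against adult control.

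Transcripts of other cells differed between the same controls. Lists of B and plasma cell genes (6 of 8 called higher), T and NK cell genes (5 of 11) and adipocyte genes (4 of 10) moved with age. The summed linear level of the B and plasma cell list, in units of the array's 75th percentile, ran from 2.755 to 68.96 in old controls and from 0.7047 to 0.8843 in adult controls, with 6 to 8 and 3 to 5 of the 8 genes above background. For T and NK cells it ran from 7.047 to 22.99 against 7.245 to 10.52, with 8 to 10 and 4 to 8 of 11 genes above background, and for adipocytes from 230.9 to 1148 against 276.8 to 285.7. The median deviation of the B and plasma cell list from the adult control mean was 6.08, 4.70, 2.39 and 1.23 log2 units in old controls 1 to 4. Old control 3 was the highest old control for Atp2a1, Mylpf and Actn3, and old control 4 was the lowest on that list. The sarcomere genes of all fibres had 3 of 14 called lower, a median of -0.34 and medians per array of -0.62, -0.60, 0.04 and -0.32 in old controls 1 to 4. Neutrophil and mast cell (11), fibroblast and tendon (11), macrophage (6) and endothelial (5) lists had 0 genes called by age, and keratinocytes 1 of 5. All 11 neutrophil and mast cell genes were nevertheless higher, with a median of 1.58, and their summed level was 222.4 in old control 4, 13.2 to 45.74 in the other old controls and 11.89 to 15.71 in adult controls. All 5 keratinocyte genes were higher too, with a median of 3.87, and their summed level was 534.5 in old control 2 and 39.32 in old control 3, against 1.533 to 2.808 in adult controls. The part of these transcripts in the lower Atp2a1 and Mylpf was not tested.

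**Figure D2:**
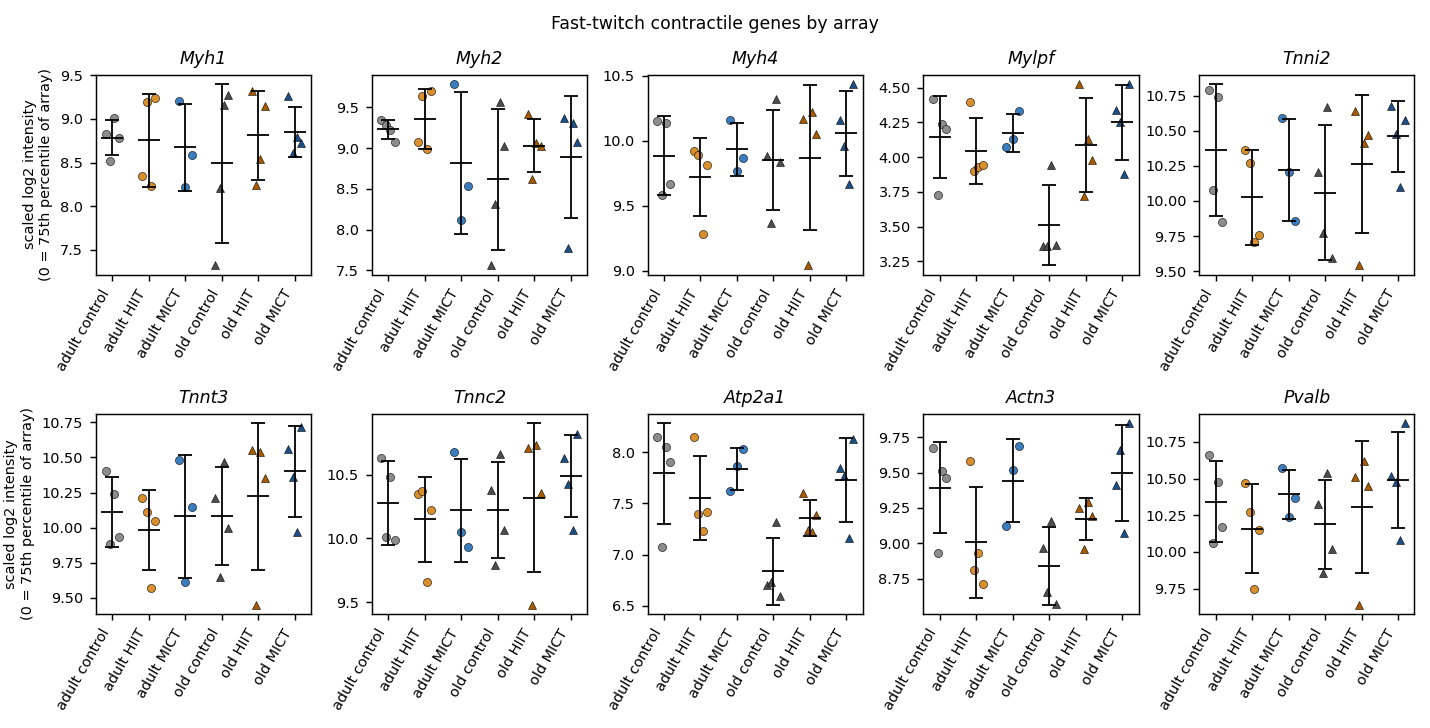
Scaled log2 intensity of each fast gene on each array by group (circles, adult; triangles, old), with the mean and SD as horizontal bars; n is 4 per group and 3 in adult MICT. Old controls sit lowest for Mylpf, Atp2a1 and Actn3, with old control 3 above the other 3 in each.

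MICT in old mice was followed by higher Mylpf, Atp2a1 and Actn3 than in old controls, and the other 7 genes did not pass. Mylpf rose by 0.74 ± 0.19 log2 units (1.67-fold, limma adjusted p = 0.00953, n = 4 and 4), Atp2a1 by 0.89 ± 0.24 (limma adjusted p = 0.0121) and Actn3 by 0.66 ± 0.20 (1.58-fold, limma adjusted p = 0.0220). In this comparison 28.8% of all features were called, 20.6% higher and 8.13% lower, so that 3 of 10 is near the share of features in general. All 10 differences were positive, with a median of 0.34 against 0.21 for all features. With scaling on the sarcomere genes of all fibres 4 were positive and 6 negative (median -0.025). The additive slide model gave 6 and 4 (median 0.015), from a MICT term that uses no old control array. The old controls are the same arrays that stood low by age, so the comparisons share them.

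In old MICT 1 to 4, Mylpf was at 4.34, 4.25, 3.88 and 4.53. Only old MICT 3 fell within the range of old controls, which reached 3.94 in old control 3. Atp2a1 was at 7.85, 7.77, 7.16 and 8.13, and again old MICT 3 lay below old control 3 at 7.32. Actn3 was at 9.41, 9.66, 9.07 and 9.85, with old MICT 3 below the 9.16 of old control 3. In these 3 genes the other 3 old MICT arrays were above every old control. Among the genes that did not pass, Tnni2 differed by 0.40 ± 0.27, Myh1 by 0.36 ± 0.35, Tnnt3 by 0.32 ± 0.24, Pvalb by 0.30 ± 0.21, Myh2 by 0.27 ± 0.39, Tnnc2 by 0.26 ± 0.26 and Myh4 by 0.20 ± 0.24.

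The 3 calls in old MICT also depended on scaling and on which arrays were fitted. Without scaling, Atp2a1 differed by 0.62 ± 0.26 (limma adjusted p = 0.199), and centred on the sarcomere genes of all fibres by 0.53 ± 0.19 (limma adjusted p = 0.0736), with none of the 10 called in either. Old MICT and old control lie on different slides. A model with additive terms for age, training and slide gives both ages 1 training effect. It put Atp2a1 at 0.125 ± 0.34, Mylpf at 0.055 ± 0.26 and Actn3 at -0.06 ± 0.285. Its MICT term combines HIIT against control in adults with MICT against HIIT in old mice. No old control array enters that term, so it cannot check old MICT against old control. Without old controls 1 and 2, or without old MICT 1 and 2, none was called, with Atp2a1 at 0.77 ± 0.30 and 0.81 ± 0.305. Those 2 fits called 512 and 128 of all 27302 features. Actn3 alone lost its call when old control 2, old control 4, old MICT 2 or old MICT 4 was left out. Immune transcripts ran the other way in the same arrays, with 6 of 8 B and plasma cell genes, 6 of 11 T and NK cell genes and 4 of 6 macrophage genes called lower in old MICT. The summed B and plasma cell level was 1.009 to 2.189 in old MICT, with 4 or 5 of 8 genes above background. Among the sarcomere genes of all fibres 5 of 14 were called higher, with a median of 0.47, and the part of any of these in the 3 calls was not tested.

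**Figure D3:**
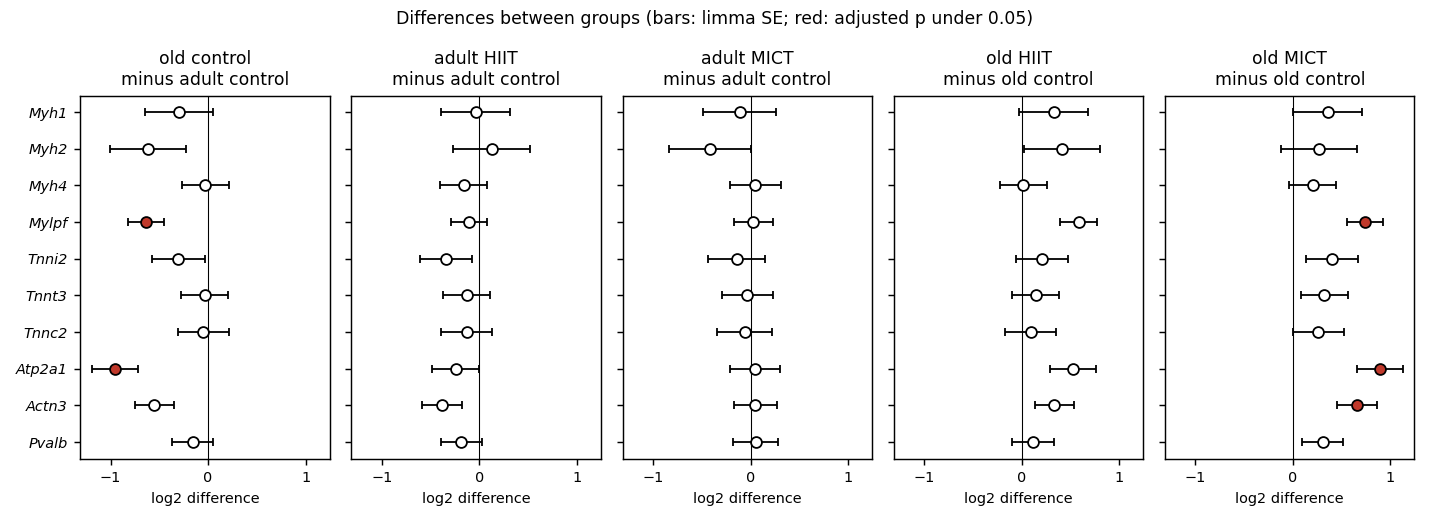
Log2 difference of each fast gene in 5 comparisons, with limma's SE as bars and red points where the adjusted p was under 0.05. Mylpf and Atp2a1 are red in the comparison by age, and Mylpf, Atp2a1 and Actn3 in old MICT.

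HIIT in old mice gave positive differences for all 10 genes and called none of them, against 0.831% of all features called, 0.817% higher and 0.0147% lower. Old HIIT and old control lie on different slides. The additive slide model takes its HIIT term from adult HIIT against adult control on slide 1 alone. Its 1 positive and 9 negative differences (median -0.145) are therefore those of adult HIIT and cannot check the old HIIT differences. Scaling on the sarcomere genes of all fibres, and leaving out old controls 1 and 2, each gave 5 positive and 5 negative. Mylpf differed by 0.58 ± 0.19 (unadjusted p = 0.00514, limma adjusted p = 0.143), Atp2a1 by 0.52 ± 0.24 (limma adjusted p = 0.282) and Actn3 by 0.335 ± 0.20 (limma adjusted p = 0.412). Of the 10 genes, 2 had an unadjusted p under 0.05, as did 4430 of the 27302 features. In old HIIT 1 to 4, Mylpf was at 4.53, 3.72, 4.13 and 3.98, Atp2a1 at 7.60, 7.24, 7.22 and 7.39, and Actn3 at 9.25, 8.96, 9.29 and 9.19. After scaling, old HIIT 2 was the lowest old HIIT array for every gene but Atp2a1. Its 75th percentile, 9.07, was the highest of old HIIT. Before scaling, the same array was the highest of old HIIT for Mylpf (12.79), Atp2a1 (16.31) and Actn3 (18.03). With old control 3 left out, 1 of the 10 genes was called higher.

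In adult mice neither regimen moved a fast gene past the threshold. For HIIT, tested within slide 1, 0 of 10 were called, against 0% of all features, with 0 of the 10 genes and 1465 of all features at an unadjusted p under 0.05. The largest difference was that of Actn3, at -0.38 ± 0.20 with a 95% interval of -0.81 to 0.04. Adult HIIT 1 had 9.58 for this gene, within the upper range of adult controls, while adult HIIT 2, 3 and 4 had 8.81, 8.93 and 8.71. For Mylpf the interval was -0.50 to 0.29, and for Atp2a1, at 8.15, 7.40, 7.23 and 7.42 in adult HIIT, it was -0.745 to 0.26. For MICT, 0 of 10 genes were called, against 0% of all features, and 0 of the 10 and 630 of all features had an unadjusted p under 0.05. Mylpf, at 4.07, 4.13 and 4.33 in adult MICT 1, 3 and 4, differed by 0.03 ± 0.20 with an interval of -0.39 to 0.45. Atp2a1, at 7.62, 7.86 and 8.03, differed by 0.04 ± 0.26, with an interval of -0.50 to 0.59.

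HIIT and MICT did not differ in a called gene at either age, with 0 of 10 and 0% of all features in both comparisons. In old mice, on slide 3, HIIT minus MICT was -0.37 ± 0.24 for Atp2a1 (95% interval -0.87 to 0.13) and -0.32 ± 0.20 for Actn3 (-0.75 to 0.10). In adults, across slides, it was -0.43 ± 0.22 for Actn3 and 0.54 ± 0.42 for Myh2. Array weights alone called Actn3 (-0.63 ± 0.16, limma adjusted p = 0.0162) and Myh2 (1.105 ± 0.275, limma adjusted p = 0.0140) there. That weighted fit called 3394 of all 27302 features in the same comparison, 1768 higher and 1626 lower, so these 2 calls are no result about fast genes. None of the 10 had an unadjusted p under 0.05 in either comparison in the unweighted fit, where 2289 features in adults and 4294 in old mice did.

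The difference in training response between ages was tested directly and passed for none of the 10 genes, in either regimen. For HIIT, the response in old mice exceeded that in adults by 0.77 ± 0.34 for Atp2a1, 0.72 ± 0.285 for Actn3 and 0.685 ± 0.26 for Mylpf, with limma adjusted p of 0.396, 0.364 and 0.360, and 0% of all features were called. For MICT it was larger by 0.85 ± 0.35 for Atp2a1, 0.71 ± 0.27 for Mylpf and 0.61 ± 0.30 for Actn3, with limma adjusted p of 0.151, 0.136 and 0.206, and 1.03% of all features were called, 0.897% with a higher and 0.128% with a lower response in old mice. At an unadjusted p under 0.05 were 3 of the 10 genes for HIIT and 2 for MICT, against 3294 and 6817 of all features. Array weights called Mylpf for MICT (0.80 ± 0.25, limma adjusted p = 0.0466), in a fit that called 2483 of all 27302 features.

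Ordered by mean level, old MICT was the highest group for 8 of the 10 genes, Myh2 being highest in adult HIIT and Atp2a1 in adult MICT. Old control was the lowest group for Myh1, Myh2, Mylpf, Atp2a1 and Actn3, and adult HIIT for Myh4 and the other 4 genes, Tnni2, Tnnt3, Tnnc2 and Pvalb. Of 50 pairs of neighbouring groups in these orders, 2 were further apart than the larger SD of the pair. One was Mylpf between adult HIIT (4.04 ± 0.24, SD, n = 4) and old control (3.51 ± 0.29, SD, n = 4). The other was Atp2a1 between old HIIT (7.36 ± 0.18, SD, n = 4) and old control (6.84 ± 0.33, SD, n = 4). In all 50 pairs the arrays overlapped, and no gene's groups were free of overlap in any of the 7 comparisons between groups. Among all features, non-overlapping groups were found for 4.18% higher and 11.1% lower by age, and for 16.1% higher and 5.24% lower in old MICT. In old HIIT the shares were 5.09% and 1.37%, in adult HIIT 1.45% and 3.17%, and in adult MICT 1.91% and 2.3%. Between HIIT and MICT they were 4.08% and 6.62% in adults and 2.4% and 4.07% in old mice.

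The fast myosins varied widely within groups. Group means of Myh2 ran from 8.62 to 9.35, with SDs within groups of 0.12 to 0.87. Myh1, the 2X chain, was at 8.83, 8.52, 9.01 and 8.78 in adult controls, at 8.35, 9.19, 8.23 and 9.24 after adult HIIT and at 9.21, 8.22 and 8.59 after adult MICT. In old mice it was at 7.32, 8.21, 9.16 and 9.27 in controls, 9.32, 8.24, 8.54 and 9.15 with HIIT and 9.26, 8.61, 8.79 and 8.72 with MICT. Old controls thus held the lowest Myh1 value of the series, in old control 1, beside one of its highest. Myh2, the 2A chain, was at 9.08, 9.64, 8.99 and 9.70 after adult HIIT, 9.79, 8.12 and 8.53 after adult MICT, 9.42, 8.62, 9.06 and 9.02 in old HIIT and 9.37, 7.78, 9.31 and 9.08 in old MICT. Myh4, the 2B chain, ran from 9.04 to 10.44 after scaling and only from 17.98 to 18.39 before it. Over 23 arrays Myh1 and Myh2 correlated with r of 0.78 (0.82 on deviations from group means), and Myh2 and Myh4 with r of 0.31. The probe of Myh8, the perinatal myosin next to Myh4, ran from 18.44 to 18.74 before scaling, and its scaled difference by age was -0.05 ± 0.26. Whether a probe also binds the transcript of a neighbouring myosin was not tested, since probe sequences were not used here.

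Differences between the myosins within an array do not change when a constant is subtracted from the array. Myh4 spanned only 0.41 before scaling, close to the brightest spot, so Myh2 minus Myh4 mostly follows the unscaled Myh2 signal and shows no shift between the 2 myosins by itself. As a change from the adult control mean, Myh2 minus Myh4 was -0.19, 0.41, 0.37 and 0.55 in adult HIIT, 0.28, -0.99 and -0.68 for adult mice after MICT, and -1.67, -0.40, -0.11 and -0.16 in old controls. Trained old mice had -0.09, 0.23, -0.51 and -0.38 after HIIT and -0.14, -1.53, 0.29 and -0.70 after MICT. In adult controls it ran from -0.26 to 0.35. The 3 lowest values, in old control 1, old MICT 2 and adult MICT 3, came from 3 groups. No group had all its arrays outside the range of adult controls in the same direction.

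Slow-fibre transcripts varied strongly between mice and followed Myh2. The slow-fibre list (Myh7, Myl2, Myl3, Tnni1, Tnnt1, Tnnc1, Atp2a2, Myoz2 and Casq2) was above background on all arrays, and its median deviation from the adult control mean ran from -2.18 in adult MICT 3 to 2.08 in adult HIIT 4. Myh7, the slow myosin, was at 6.76, 9.72, 8.89 and 9.75 in adult HIIT and 6.45, 9.06, 7.48 and 7.71 in adult controls, a difference of 1.105 ± 0.86 (limma adjusted p = 0.918). Tnni1, the slow troponin I, differed by 1.80 ± 0.88 (limma adjusted p = 0.908). In the fuller list of slow counterparts, 14 of 15 genes were measured and 0 were called in any of the 9 comparisons, while in adult HIIT all 14 were positive, with a median of 1.08. By limma's unadjusted p under 0.05, 2 of the 14 differed between adult HIIT and adult control, 12 between adult HIIT and adult MICT, and 0 in old MICT against old control.

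Of 10 relations between a fast gene and the slow-fibre list over 23 arrays, those of Myh2 and Actn3 passed by 1 of 2 measures. Myh2 correlated positively, with Pearson r of 0.64 (permutation p = 0.00069, adjusted over the 10 relations 0.0069) and Spearman rho of 0.52 (permutation p = 0.0122, adjusted 0.0608). Without the 2 arrays farthest from the median of the list, r was 0.57. Within slides 1, 2 and 3, r was 0.57, 0.87 and 0.18. Actn3 correlated negatively, with r of -0.52 (permutation p = 0.0119, adjusted 0.0595) and rho of -0.58 (permutation p = 0.00441, adjusted 0.0441). For Actn3, r was -0.38 without the 2 farthest arrays and -0.99, -0.32 and -0.29 within slides 1, 2 and 3. Atp2a1 and Mylpf, which did not pass over all arrays (r of -0.24 and -0.20), had r of -0.89 and -0.90 within slide 1 of -0.12 and 0.00 within slide 2, and of -0.32 and -0.32 within slide 3. These 23 arrays include the 6 groups, and r on deviations from group means was 0.64 for Myh2 and -0.47 for Actn3.

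**Figure D4:**
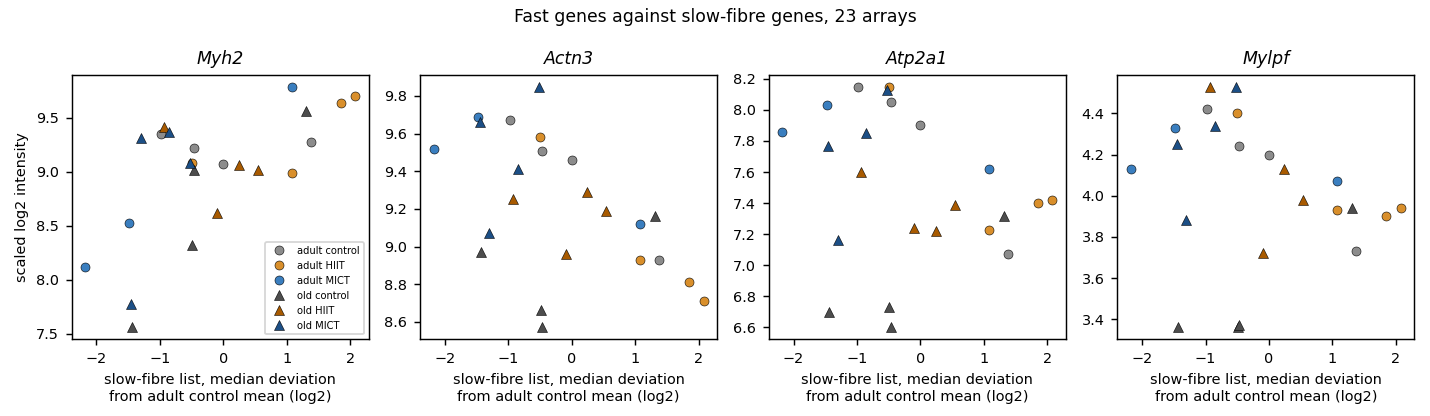
Scaled log2 intensity of Myh2, Actn3, Atp2a1 and Mylpf against the median deviation of the slow-fibre list from the adult control mean, with 1 point per array and groups by colour and shape. Over all arrays Myh2 tends to be higher with more slow-fibre transcript (Pearson r of 0.64) and Actn3 lower (-0.52). Within slide 3 r was 0.18 and -0.29. In the Atp2a1 and Mylpf panels 3 old controls lie at the bottom.

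None of the 5 genes nearest the brightest spot was called by limma in any of the 9 comparisons, and 0 of them had an unadjusted p under 0.05. Pvalb ran from 9.64 in old HIIT 2 to 10.88 in old MICT 4, Tnnc2 from 9.48 to 10.82, Tnnt3 from 9.45 to 10.72 and Tnni2 from 9.54 to 10.79. By age they differed by -0.16 ± 0.21 (Pvalb), -0.05 ± 0.26 (Tnnc2), -0.03 ± 0.24 (Tnnt3) and -0.305 ± 0.27 (Tnni2). Correlations among these 4 and Myh4 over 23 arrays were 0.81 to 0.96 after scaling and -0.06 to 0.75 before it, the lowest in both being that of Tnni2 with Tnnt3. By contrast, Mylpf, Atp2a1 and Actn3 correlated with each other at 0.84 to 0.92 after scaling and 0.86 to 0.93 before. A second Tnnt3 probe, which ran from 17.28 to 18.55 before scaling, differed by -0.21 ± 0.20 by age and 0.01 ± 0.20 in old MICT, where the probe used differed by -0.03 ± 0.24 and 0.32 ± 0.24. A second Mylpf probe, much dimmer at 5.42 to 7.24 before scaling, differed by -0.37 ± 0.22 by age and 0.33 ± 0.22 in old MICT, in the same direction as the probe used but without a call (limma adjusted p over all probes = 0.250 for both).

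Further muscle genes were called in the same comparisons, which share the old controls. A list of 15 further sarcomere and calcium genes was drawn up for fast fibres but is not limited to them. Of these 15, 7 fell and 0 rose with age (median -0.45), and 5 rose and 0 fell in old MICT (median 0.40). The 14 sarcomere genes of all fibres moved the same way, with 3 lower by age (median -0.34) and 5 higher in old MICT (median 0.47). A change particular to fast fibres is therefore not shown by these counts. Over all features 8.49% were called lower by age and 20.6% higher in old MICT, with medians of -0.16 and 0.21. With age Cacnb1, a subunit of the voltage-sensing calcium channel, fell by 0.96 ± 0.16, Mylk2, the skeletal myosin light chain kinase, fell by 0.855 ± 0.25 and Cacna1s, the channel's pore-forming subunit, fell by 0.45 ± 0.14. In old MICT Mylk2 rose by 0.99 ± 0.25, Cacna1s by 0.55 ± 0.14 and Ryr1, the calcium release channel, by 0.55 ± 0.19. Myl1, the fast essential light chain, differed by -0.14 ± 0.23 and 0.24 ± 0.23. Of 10 glycolytic and energy genes, 2 fell with age and 3 rose in old MICT, among them Ckm, the muscle creatine kinase (-0.775 ± 0.22 and 0.78 ± 0.22), and Ampd1, the muscle AMP deaminase (-0.97 ± 0.24 and 0.71 ± 0.24). The counts of these 10 are near the shares over all features. Counts for this and the other gene lists come from the main scaling alone and were not repeated under the alternatives. Both comparisons also lie across slides. None of these 25 genes was called by limma in adult HIIT, adult MICT or old HIIT. At an unadjusted p under 0.05 were 2 of the 15 and 1 of the 10 for HIIT in adults, 0 and 0 for MICT in adults, and 2 and 2 for HIIT in old mice.

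Of 25 regulators linked to fibre type, 3 fell with age and 8 rose and 1 fell in old MICT. Over all features 8.49% were called lower by age, and 20.6% higher and 8.13% lower in old MICT. None of the counts among the 25, of rises or of falls, is read as a result about regulators. Nfix fell by 0.62 ± 0.16 with age. In old MICT the largest rises named here were those of Foxo1 (2.05 ± 0.52) and Klf15 (1.78 ± 0.37), both known from fasting and glucocorticoid responses. Hdac4, which represses MEF2 factors, rose by 0.66 ± 0.14. Among 5 further myosin genes, 1 was called lower by age and 1 higher in old MICT, beside 8.49% and 20.6% of all features. Myh14 fell by 0.45 ± 0.15 with age and rose in old MICT by 0.785 ± 0.15. Myh3, the embryonic myosin, differed by 2.20 ± 1.055 with age (limma adjusted p = 0.153), with 6.13 in old control 4 and -0.90 in old control 1.

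By the median of their correlations with the 10 genes over 23 arrays, the features most like them among 15508 others were Tcap (0.81), Acta1 (0.805), Sart1 (0.80), Chchd10 (0.80), Zfp628 (0.79), Chchd2 (0.78), Gm8709 (0.77) and Atp5b (0.77). On deviations from the group means they were Acta1 (0.83), Eno3 (0.82), Zfp628 (0.81), Tcap (0.81), Gm5523 (0.81), Stxbp4 (0.81), Chchd10 (0.80) and Gcg (0.80). Tcap caps titin at the Z-disc, Acta1 is skeletal actin and Eno3 is the muscle enolase. All arrays share the scaling described above, which 5 of the 10 genes follow.

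**Figure D5:**
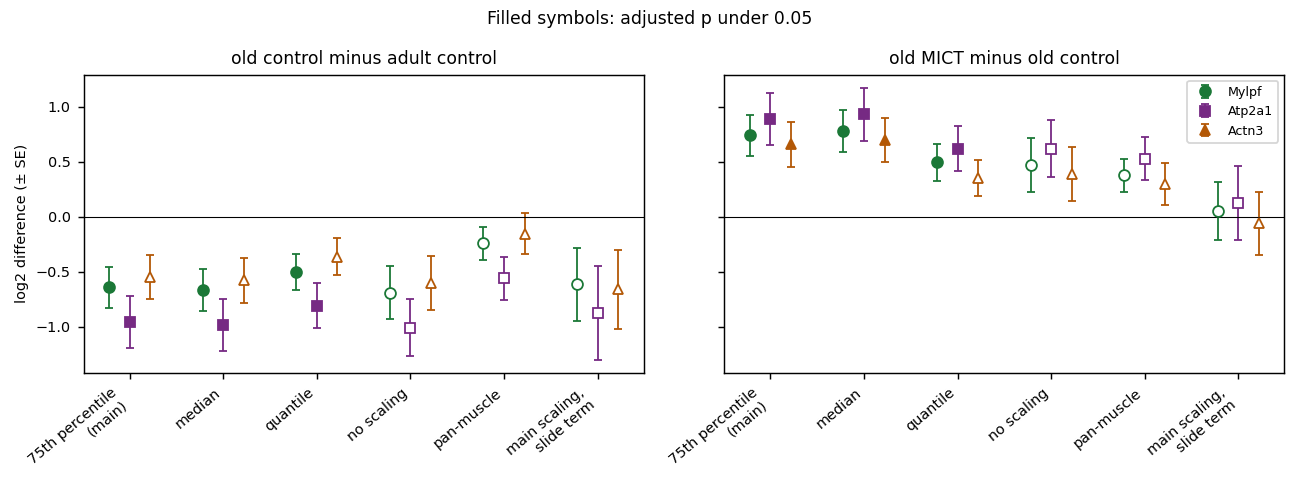
Log2 difference (± limma's SE) of Mylpf, Atp2a1 and Actn3 by age (left) and in old MICT (right) under 5 scalings and with a slide term, filled where the adjusted p was under 0.05. By age the differences stay below 0 throughout, and in old MICT they stay above 0 except with the slide term, where Actn3 is at -0.06. The slide-term values in the right panel use no old control array. Those in the left panel set old control against adult MICT, with training effects taken from other slides. They are therefore a different contrast from old control against adult control.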

How the data were processed

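Gastrocnemius RNA of 23 mice in 6 groups was read on 1-colour arrays of 62976 spots, with no saturated gene spot. The deposited scanner files hold the processed signal, a background-subtracted intensity on a linear scale per the file headers. The deposited value table, treated as a score because its scale and centring are not given in the sources used here, correlated with the log2 signal at r of at least 0.99954, and its medians ran from -0.4 to -0.2 per array.

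From the deposited intensities the log2 signal was taken, 3671 control spots and 283 flagged probes were left out, spots of a probe were averaged, and each array's 75th percentile was subtracted. Probes well above background on at least 3 arrays were kept, and the brightest such probe stood for a gene, giving 27302 features. Of 29574 probes with a RefSeq accession, 28123 matched a gene. Between 47.2% and 58.9% of spots on an array were well above background, and the number of arrays limits the precision. Group means were fitted over all 23 arrays with limma 3.58.1 (R 4.3.3, lmFit, eBayes with an intensity trend, Benjamini-Hochberg), after tests on simulated data. The labels do not say more of the replicates than that they are separate mice.

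The 10 genes and the other lists were chosen with earlier results of these data known. From each other list, at most 5 called genes of smallest p per comparison are named, with Myh7, Tnni1, Myh3, Myh8 and Myl1. Alternatives covered background correction, scaling, probe choice, variance model, slide, arrays left out and the fit's samples.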

Additional observations from a re-analysis of the deposited data

Results flagged for a closer look

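In 3 of 50 groups of 4 arrays, 1 array lay apart from the other 3 by Dixon's 95% criterion on its gap over the group's range, which chance exceeds in about 1 group in 20. Mylpf in old control 3 was at 3.94, against 3.36, 3.36 and 3.37 in the other old controls (gap 0.983 of the range). Mylpf in adult HIIT 1 was at 4.40, against 3.90, 3.93 and 3.94 (0.92 of the range). Myh4 in old HIIT 2 was at 9.04, against 10.05, 10.17 and 10.22 (0.856 of the range), on an array with a 75th percentile of 9.07.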

How the results depend on the processing

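Of the 10 genes, 2 were called by age and 3 in old MICT against old control. By age the count was 0 with scaling on the sarcomere genes of all fibres, with the deposited value table, with the additive slide model, with only the groups compared, without old controls 1 and 2, and with no scaling, and it was 1 with no filter on dim probes, with the mean of all tested probes and with the lowest-mean tested probe. In old MICT it was 0 with scaling on the sarcomere genes, with the deposited value table, with the additive slide model, with only the groups compared, without old controls 1 and 2, without old MICT 1 and 2, and with no scaling. Of all 27302 features, the additive slide model called 0 in both comparisons. Fitting only the groups compared called 46 by age and 0 in old MICT. The counts of 0 in these 2 settings are therefore no result about fast genes. The deposited value table called 3123 features by age and 4672 in old MICT. Leaving out single arrays gave 0 to 3 calls by age, 2 to 3 in old MICT, 0 to 1 in old HIIT and 0 to 0 in the other comparisons. Array weights called 2 genes between adult HIIT and adult MICT and 1 in the difference of MICT responses, against 3394 and 2483 of all features. Actn3 was at -0.06 in the additive slide model. The MICT term of that model uses no old control array, so this value is a different contrast from old MICT against old control. The age term of that model sets old control against adult MICT, so it too is a different contrast from old control against adult control. Scaling on the sarcomere genes moved the median of all features from -0.159 to 0.238 by age and from 0.206 to -0.158 in old MICT, and turned the calls over all features from 1150 higher and 2318 lower to 1604 and 115 by age, and from 5634 and 2220 to 584 and 2906 in old MICT. With no scaling the calls were 91 higher and 39 lower by age and 95 and 465 in old MICT. Over 42 settings Atp2a1 ran from -1.198 to -0.175 by age and from 0.125 to 1.081 in old MICT, and Mylpf from -0.784 to -0.15 and from 0.055 to 0.885. No scaling, median scaling, the lowest-mean probe and leaving out adult HIIT 3 and old HIIT 2 were chosen after seeing the data. Same-numbered arrays did not deviate together (18 of 55 pairs with r over 0.1, median 0.04), and the replicate block left 2 calls by age, 3 in old MICT and 0 elsewhere. Signals close to the brightest spot limit what can be seen of Myh4, the 3 troponins and Pvalb.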
